A study of Rattus norvegicus with 6 samples.

Results

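The miR-29 family was examined in small RNA libraries of fibroblasts from the sciatic nerve of the rat, a peripheral nerve. Its members were taken as every row of the deposited table that is an arm of rno-miR-29a, rno-miR-29b or rno-miR-29c. This gave 6 of 1071 rows. The table holds 552 rows of known rat miRNAs and 519 of predicted ones. There were 3 samples of the vesicles that the fibroblasts release (EV, extracellular vesicles, which the labels also name exosomal) and 3 of RNA from within the fibroblasts (Intracellular), to which the design compares them. All cells were wild type and untreated, and all samples carry batch number 1. The sources used here do not give the age and strain of the animals, how vesicles were isolated or whether replicates were separate cultures. The p-values therefore speak only of the spread among these libraries, part or all of which may be technical.

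A miRNA is a short RNA cut from a hairpin precursor, and either arm of the hairpin (5p or 3p) can be loaded into the silencing complex. Bases 2 to 8 of the loaded arm, the seed, pair with sites in target mRNAs and lower their translation and stability. In the miR-29 family the 3p arm is the usual guide. It represses mRNAs of fibrillar collagens, elastin and fibrillin, and transforming growth factor beta lowers it in fibroblasts, which is why the family is studied in fibrosis. In rat Schwann cells miR-29a also acts on the mRNA of the myelin protein Pmp22.

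The 3p arms are shown first because their shared seed, here in capitals, defines the family. The sequences are from RefSeq (build GRCr8), and all 6 rows of the table carry the same letters with T in place of U.
miR-29a-3p: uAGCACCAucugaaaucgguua
miR-29b-3p: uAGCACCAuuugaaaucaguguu
miR-29c-3p: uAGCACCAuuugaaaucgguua
No other row with a listed sequence shared this seed (3 of 659 rows, and 412 predicted rows list no sequence). With positions counted from 1 at the 5′ end, miR-29c-3p differed from miR-29a-3p by C10U alone, so 21 of 22 positions were identical. miR-29b-3p differed from miR-29a-3p by C10U, G18A, U21G and A22U, and has 1 more base at its 3′ end. How the authors assigned reads that fit several members is not stated, so the values of miR-29c-3p beside those of miR-29a-3p are uncertain.

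The 5p arms share no seed with the 3p arms and are shown because they tell the precursors apart.
miR-29a-5p: acugauuucuuuugguguucag
miR-29b-5p: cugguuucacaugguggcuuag
miR-29c-5p: ugaccgauuucuccugguguuc
The family is made from 4 hairpins. Mir29a and Mir29b1 lie together on chromosome 4 (minus strand), and Mir29b2 and Mir29c lie together on chromosome 13 (plus strand). Both miR-29b hairpins release the same 3p arm, as their sequences show with the annotated arms in capitals.
Mir29b1: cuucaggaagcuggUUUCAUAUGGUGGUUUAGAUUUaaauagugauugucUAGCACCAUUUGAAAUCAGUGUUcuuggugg
Mir29b2: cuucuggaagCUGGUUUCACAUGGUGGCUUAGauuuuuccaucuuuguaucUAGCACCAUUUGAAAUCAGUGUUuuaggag
The count of miR-29b-3p therefore joins both genes. The row miR-29b-5p is the 5p arm of Mir29b2, and that of Mir29b1 has no row in the deposited table. RefSeq also lists a miRNA gene that starts between the genes of each pair, Mir3587 on chromosome 4 and Mir3556b on chromosome 13. These are not analysed here.

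The EV libraries held 81211 to 105578 counts and the Intracellular libraries 1839047 to 8859302, so 3 counts stood for 28.4 to 36.9 CPM in EV and for 0.339 to 1.63 CPM in Intracellular libraries. CPM are counts scaled to 1000000 per library. A CPM is a share of a library, so more of one miRNA and less of the others cannot be told apart, and neither can fewer vesicles or cells and less RNA in each. The TMM factor, a correction of library size for composition, was 1.17 to 1.35 in EV libraries, against 0.557, 0.963 and 0.935 in Intracellular replicates 1, 2 and 3, of which replicate 1 stood apart. The 6 mesenchymal markers (miR-143-3p, miR-145-5p, both arms of miR-199a, miR-214-3p and miR-21-5p) took 41.5% to 42.4% of EV counts and 46.5% to 49.0% of Intracellular counts. The 5 epithelial markers were at 0 in EV and summed to 1.09 to 2.14 CPM in Intracellular libraries. The liver marker miR-122-5p stood at 11158 to 13723 CPM in EV, against 117.7 to 344.7 CPM in Intracellular libraries. The 3 erythroid markers summed to 151.5 to 221.6 CPM in EV, with 1 of them at 0, against 2.26 to 5.98 CPM in Intracellular libraries. The 3 skeletal muscle markers summed to 49.3 to 151.5 CPM in EV, against 9.06 to 12.6 CPM in Intracellular libraries. Of these, miR-206-3p stood at 27.3, 105.9 and 74.1 TMM-scaled CPM in EV, against 6.84, 2.20 and 2.54 in Intracellular libraries. miR-1-3p did not rise, at 9.12, 7.56 and 0 TMM-scaled CPM in EV, against 9.77, 6.59 and 10.6 in Intracellular libraries. The summed leukocyte, myelinating glia and endothelial markers overlapped between the groups, with 2 of 4 leukocyte and 1 of 2 glial markers at 0 in EV. So did miR-9a-5p, the only 1 of 2 neuronal markers with a row in the deposited table. The part of all these markers in the results on miR-29 was not tested.

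rno-miR-29a-3p, the main member of the family in both groups, was higher in the vesicles. It stood at 5012, 4774 and 5004 CPM in EV replicates 1, 2 and 3, against 666.1, 1291 and 1031 CPM in Intracellular replicates 1, 2 and 3. Every EV library lay above every Intracellular one, by 3.70 to 7.52 times over the 9 pairs of libraries. These levels rest on 407, 504 and 462 counts in EV, against 1225, 4276 and 9138 counts in Intracellular libraries. The lowest 95% exact Poisson bound in EV was 4366 CPM and the highest in Intracellular libraries was 1330 CPM, bounds that cover counting error only. At the pooled Intracellular level 291.6 counts would fall in the EV libraries, and 1373 were found.

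Among all rows, miR-29a-3p ranked 29th, 29th and 27th by level in EV replicates 1, 2 and 3, against 58th, 48th and 58th in Intracellular replicates 1, 2 and 3. The coefficient of variation of its CPM was 2.74% in EV, where counting alone gives 4.67%, against 31.5% in Intracellular libraries. Once TMM-scaled, it was 7.70% in EV, against 9.81% in Intracellular libraries. TMM-scaled values were 3710, 3813 and 4279 CPM in EV, against 1197, 1341 and 1105 CPM in Intracellular libraries, in replicate order.

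rno-miR-29b-3p, made from both of the family's clusters, was the second member by level. It stood at 86.2, 161.0 and 97.5 CPM in EV replicates 1, 2 and 3, from only 7, 17 and 9 counts, against 15.8, 44.1 and 55.3 CPM in Intracellular replicates 1, 2 and 3, from 29, 146 and 490 counts. EV replicate 2 was the highest and Intracellular replicate 1 the lowest, and the groups did not overlap. The closest pair of libraries differed by 1.56 times, and the Poisson bounds of EV replicate 1 (34.7 to 177.6 CPM) overlapped those of Intracellular replicate 3 (50.5 to 60.4 CPM). TMM-scaled values were 63.8, 128.6 and 83.4 CPM in EV, against 28.3, 45.8 and 59.2 CPM in Intracellular libraries.

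**Figure D1:**
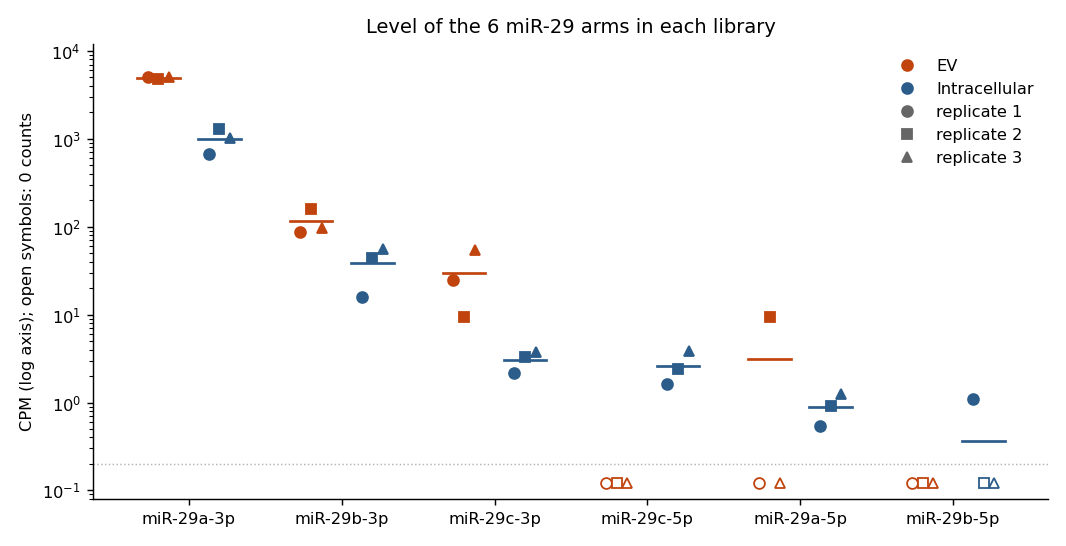
Level of the 6 miR-29 arms in CPM on a log axis, EV (orange) left of Intracellular (blue), with 1 symbol per library and a line at the mean of 3. Open symbols below the dotted line mark libraries with 0 counts. The 3p arms of miR-29a, miR-29b and miR-29c lay higher in every EV library than in every Intracellular one. So did 41.8% of all miRNAs tested, which do not include miR-29c-3p (2, 1 and 5 EV counts). The 5p arms had 0 or 1 count per EV library (1 count in EV replicate 2 is 9.47 CPM). At the pooled Intracellular level only 0.299, 0.0398 and 0.896 EV counts of miR-29a-5p, miR-29b-5p and miR-29c-5p would be found, so their levels cannot be compared.

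Counts were tested across all miRNAs that passed a filter on low counts with the quasi-likelihood test of edgeR, 2-sided, and a call is an adjusted p (Benjamini-Hochberg) under 0.05. Both miR-29 arms that passed, miR-29a-3p and miR-29b-3p, were called higher in EV, where 25.6% of the 328 miRNAs tested were called higher and 17.1% lower. miR-29a-3p rose by 1.70 on the log2 scale (SE 0.18, edgeR adjusted p = 3.88e-07), the 59th largest of all 328 and the 35th among the 290 known miRNAs tested. miR-29b-3p rose by 1.02 (SE 0.39, edgeR adjusted p = 0.0413), the 82nd largest of all and the 57th among known miRNAs. The median over all miRNAs tested was -0.06. CPM that did not overlap between the groups, EV higher, were found for 41.8% of all miRNAs tested, so the lack of overlap in both arms says little by itself.

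**Figure D2:**
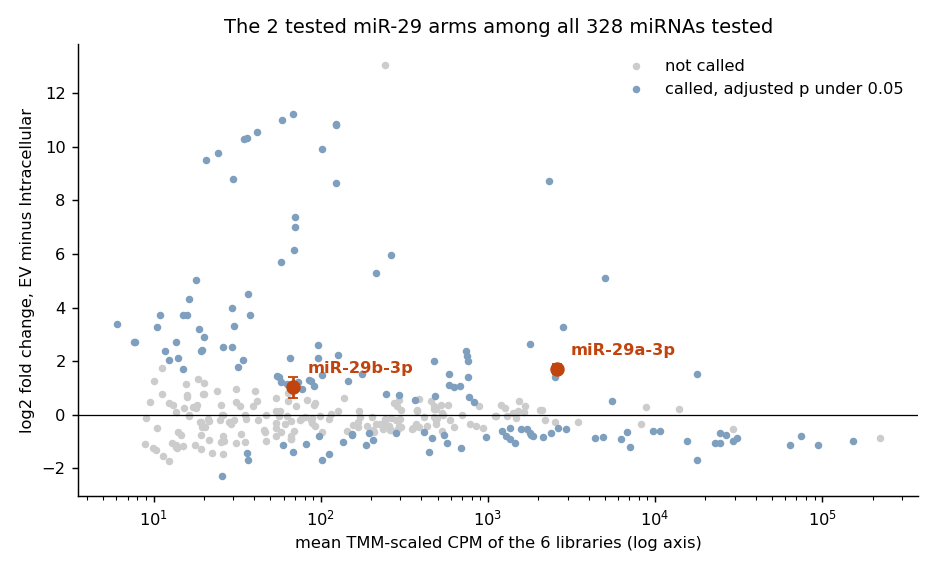
Log2 fold change, EV minus Intracellular, of the 328 miRNAs tested against their mean TMM-scaled CPM (log axis), with called miRNAs in blue and the others in grey. The 2 miR-29 arms (orange, ± SE) lie above 0 at 1.70 and 1.02.

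The sizes depended on scaling more than the direction did. With total counts in place of TMM, the log2 fold change of miR-29a-3p was 2.31 (edgeR adjusted p = 7.24e-08) and that of miR-29b-3p 1.58 (edgeR adjusted p = 0.0162), while the median over all miRNAs tested moved to 0.55, and 32.6% were called higher. Scaled to 5 common reference miRNAs (let-7a-5p, miR-16-5p, miR-26a-5p, miR-103-3p and miR-191a-5p), which are often used to normalise vesicle miRNAs, miR-29a-3p stood at 2.49 (edgeR adjusted p = 1.44e-08) and miR-29b-3p at 1.78 (edgeR adjusted p = 0.00509), where the median was 0.73 and 38.7% were called higher. With TMM, 3 of these 5 were themselves called lower in EV (median log2 fold change -0.67), where 17.1% of all miRNAs tested were. With total counts 0 of the 5 were (median -0.06).

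The call of miR-29a-3p held under all 26 alternatives run, with log2 fold changes of 1.45 to 2.49. That of miR-29b-3p held under 12 of 26, although its sign stayed positive in all of them. It was lost when any 1 EV library was left out (log2 fold changes of 1.22, 0.66 and 1.08 and edgeR adjusted p of 0.0515, 0.343 and 0.0958 without EV replicates 1, 2 and 3, with the same 328 miRNAs tested). It was also lost without Intracellular replicate 1 (0.87, edgeR adjusted p = 0.0579) and without Intracellular replicate 2 (1.05, edgeR adjusted p = 0.0724), but in the last case it held with the filter applied again (1.13, edgeR adjusted p = 0.0466). The 33 EV counts of miR-29b-3p limit its precision: counting alone gives a coefficient of variation of 30.2% between EV libraries, and 35.1% was observed.

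**Figure D3:**
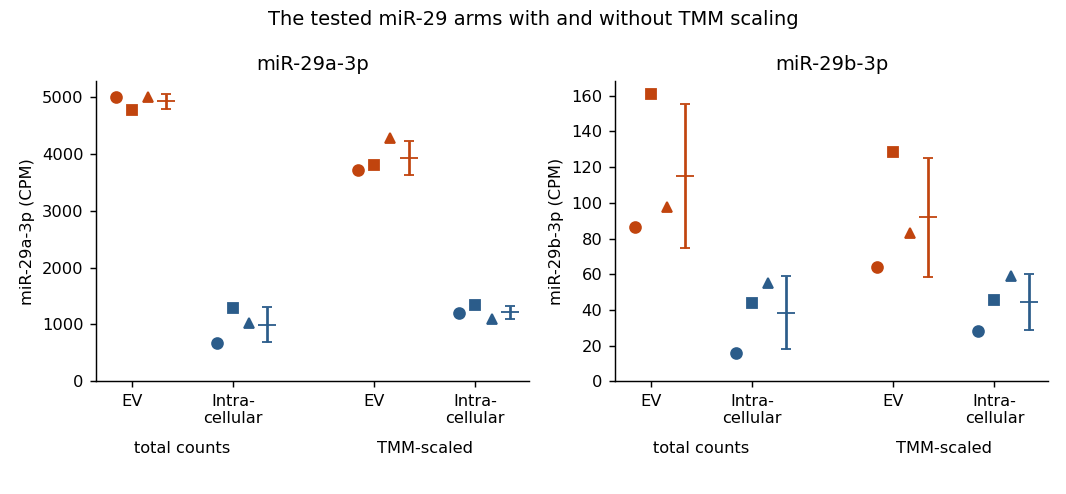
miR-29a-3p (left) and miR-29b-3p (right) in CPM by total counts and TMM-scaled, EV (orange) left of Intracellular (blue); circles, squares and triangles are replicates 1, 2 and 3, and bars are the mean ± SD of 3 libraries. With TMM scaling, the Intracellular values of miR-29a-3p draw together, from 1105 to 1341 CPM, and the EV libraries stay above the Intracellular ones in both panels. By total counts 41.8% of all miRNAs tested did so, and the share for TMM-scaled values is not given here.

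rno-miR-29c-3p, which is identical to miR-29a-3p but for 1 base, was rare. It had 2, 1 and 5 counts in EV replicates 1, 2 and 3 (24.6, 9.47 and 54.2 CPM), against 4, 11 and 33 counts in Intracellular replicates 1, 2 and 3 (2.18, 3.32 and 3.72 CPM). Every EV value was above every Intracellular one, as for 41.8% of all miRNAs tested, which do not include this arm. However, 1 count in EV replicate 2 (9.47 CPM) already exceeds the highest Intracellular value. EV held a pooled 8 counts (exact Poisson 95% interval 3.45 to 15.8) where 0.956 would be found at the pooled Intracellular level. The arm did not pass the filter, so it has no test beside the other members. It passed a filter of 5 counts in 3 libraries only because EV replicate 3, its highest EV library, had exactly 5. A test behind that filter is therefore no separate support. There its log2 fold change was 2.60 (SE 0.77, edgeR adjusted p = 0.0053, 19.1% of 372 miRNAs called higher), and with no filter 2.43 (edgeR adjusted p = 0.0104, 18.4% of 1071 called higher). Without EV replicate 3, which holds 5 of the 8 EV counts, it was 1.63 (edgeR adjusted p = 0.212, with the filter applied to the 5 libraries left). The arm passed that filter through the remaining EV libraries alone, so this value is no separate support either.

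The makeup of the family was compared within libraries, where scaling has no part. miR-29a-3p made up 97.1% ± 0.735 of all miR-29 counts in EV, against 95.8% ± 1.44 in Intracellular libraries (mean ± SD, n = 3). miR-29b-3p stood at 1.72%, 3.37% and 1.95% of the count of miR-29a-3p in EV replicates 1, 2 and 3, against 2.37%, 3.41% and 5.36% in Intracellular replicates 1, 2 and 3. As log2 ratios with a prior count of 0.5, these averaged -5.41 ± 0.49 in EV, against -4.82 ± 0.58 in Intracellular libraries (mean ± SD, n = 3). The groups overlapped, and the difference of -0.58 (SE 0.44) had a 2-sided exact permutation p of 0.3, where 3 against 3 allows none below 0.1. It was -0.28 without Intracellular replicate 3 and -0.86 without EV replicate 2. The 2 members are thus not shown to rise by different amounts.

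The count of miR-29c-3p was 0.491%, 0.198% and 1.08% of that of miR-29a-3p in EV replicates 1, 2 and 3, against 0.327%, 0.257% and 0.361% in Intracellular replicates 1, 2 and 3. The log2 ratio averaged -7.38 ± 1.00 in EV, against -8.24 ± 0.26 in Intracellular libraries (mean ± SD, n = 3). Here too the groups overlapped, and the difference of 0.86 (SE 0.60) had a 2-sided exact permutation p of 0.3. It was 0.37 without EV replicate 3, 1.37 without EV replicate 2 and 1.31 with a prior count of 2. A ratio within a library does not show whether either arm rose. Whether reads of miR-29a-3p with an error at position 10 were counted in the row of miR-29c-3p was not tested.

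**Figure D4:**
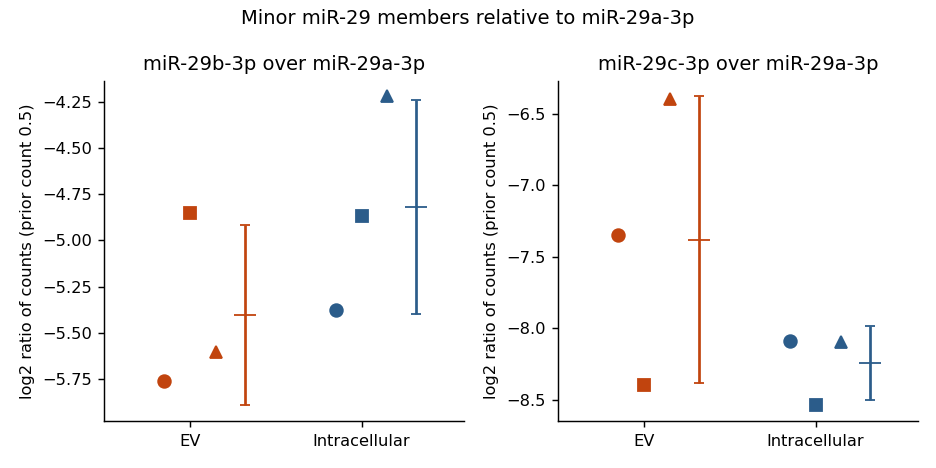
Log2 ratio of counts of miR-29b-3p (left) and miR-29c-3p (right) over miR-29a-3p in each library, EV (orange) left of Intracellular (blue), with circles, squares and triangles for replicates 1, 2 and 3 and the mean ± SD of 3. The groups overlap in both panels, with differences of -0.58 and 0.86.

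The 5p arms were at the edge of detection. miR-29a-5p had 0, 1 and 0 counts in EV replicates 1, 2 and 3, against 1, 3 and 11 in Intracellular replicates 1, 2 and 3 (0.544, 0.906 and 1.24 CPM). It was 0.0728% of both arms in the pooled EV libraries (1 of 1374 counts, exact binomial 95% interval 0.00184% to 0.405%), against 0.102% in the pooled Intracellular libraries (15 of 14654, 0.0573% to 0.169%). No difference in arm use of miR-29a was detectable at this depth (log2 ratio of arms, EV minus Intracellular, 0.55, 2-sided exact permutation p = 0.5), and a prior count of 0.1 turned its sign (-0.92). miR-29b-5p, from Mir29b2 alone, had 0 counts in all EV libraries and 2, 0 and 0 in Intracellular replicates 1, 2 and 3.

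The rows of miR-29c gave another pattern of arms, which rests on the uncertain count of miR-29c-3p. How reads that also fit miR-29a-3p were assigned is not stated. miR-29c-5p had 0 counts in each EV library, against 3, 8 and 34 counts in Intracellular replicates 1, 2 and 3 (1.63, 2.41 and 3.84 CPM). As counted inside the cells, the 2 arms of miR-29c were thus about equally frequent. The 5p arm was at 42.9%, 42.1% and 50.7% of both in Intracellular replicates 1, 2 and 3. Pooled, it was 0 of 8 counts in EV (exact binomial 95% interval 0% to 36.9%; the floor of 3 counts allows a share of up to 37.5%), against 45 of 93 in Intracellular libraries, or 48.4% (exact binomial 95% interval 37.9% to 59.0%). These 8 EV counts come from 3 libraries, 5 of them from EV replicate 3, and the difference in arm use was not tested. The level of miR-29c-5p itself could not be compared, since 0.896 counts would be found in all EV libraries at the Intracellular level.

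By level in EV libraries miR-29a-3p stood above miR-29b-3p and this above miR-29c-3p, each without overlap, in CPM and for arms of 22 or 23 bases. In Intracellular libraries the same order held, but miR-29c-3p (2.18 to 3.72 CPM) and miR-29c-5p (1.63 to 3.84 CPM) overlapped, as did miR-29a-5p (0.544 to 1.24 CPM) and miR-29b-5p (0 to 1.09 CPM). Adapter ligation favours some sequences over others, so levels of different arms are less certain than the same arm's levels between groups. All arms together made up 0.508% ± 0.0108 of counts in EV, against 0.104% ± 0.0330 in Intracellular libraries (mean ± SD, n = 3).

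Motifs tied to the sorting of miRNAs in other cells were looked up on the RNA strand of the mature arms. GGAG, a motif bound by the RNA-binding protein hnRNPA2B1 that marks vesicle miRNAs in human T cells, was in 0 of the 6 arms and in 7.97% of 552 known miRNAs of the table. CCCU, described with it, was also in 0 of the 6 arms and in 9.42% of known miRNAs. AGUGUU, the 3′ end that directs miR-29b to the nucleus in human cells, was in miR-29b-3p and in 1.27% of known miRNAs. The GC content was 40.9% in miR-29a-3p, 34.8% in miR-29b-3p and 36.4% in miR-29c-3p, against a median of 45.8% over the known miRNAs tested. Its part in the results was not tested.

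Other miRNAs reported as regulators of fibrosis or extracellular matrix were counted beside the family. Of 9 miRNAs reported to promote fibrosis, 2 were called higher and 4 lower in EV, with a median log2 fold change of -0.53, where 25.6% of all miRNAs tested were called higher and 17.1% lower. Of 17 reported to limit it, 11 were tested, of which 2 were called higher and 7 lower, with a median of -0.69, where all miRNAs tested had -0.06. With total counts 3 of the first list and 2 of the second were called higher and 0 of either lower, and the medians were 0.08 and -0.10, where all miRNAs tested had 0.55. The loss was general, since lower calls over all miRNAs tested numbered 56 with TMM and 3 with total counts.

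miR-21-5p, a miRNA raised in activated fibroblasts, stood at 129126 ± 5937 CPM in EV, against 152971 ± 11468 CPM in Intracellular libraries (mean ± SD, n = 3). Its log2 fold change was -0.97 (edgeR adjusted p = 0.0319), and -0.24 by total counts (edgeR adjusted p = 0.0505). miR-26a-5p, reported to limit collagen synthesis, stood at 24764 ± 2040 CPM in EV, against 26887 ± 5476 CPM in Intracellular libraries (mean ± SD, n = 3). Its log2 fold change was -0.75 (edgeR adjusted p = 0.0213), and -0.12 by total counts (edgeR adjusted p = 0.677). The most abundant of the first list was miR-143-3p, at -0.88 (edgeR adjusted p = 0.0541), and -0.15 by total counts (edgeR adjusted p = 0.199). That of the second list was let-7g-5p, at -0.86 (edgeR adjusted p = 0.0287), and -0.12 by total counts (edgeR adjusted p = 0.630). The higher calls were those of miR-214-3p (1.53) and miR-34a-5p (0.75) in the first list, and of miR-122-5p (5.09) and miR-19b-3p (1.31, from 42 EV counts) in the second.

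Profiles were also matched, by the root mean square difference of log2(CPM + 1) over the 6 libraries after each miRNA's own mean was taken off. Nearest to miR-29a-3p were miR-665 (0.137, from 8 EV counts), miR-1839-5p (0.232), miR-23a-3p (0.244), miR-214-3p (0.286) and miR-501-3p (0.291). Of these, miR-23a-3p was the closest in level, at 4567 ± 881 CPM in EV, against 1143 ± 364 CPM in Intracellular libraries (mean ± SD, n = 3). Nearest to miR-29b-3p were miR-149-5p (0.234), miR-362-5p (0.281), miR-125b-2-3p (0.373), miR-339-5p (0.389) and miR-296-3p (0.401). miR-29b-3p was the 37th nearest to miR-29a-3p (0.555), so the arms of 1 seed were not each other's closest match in these values. This rank rests on CPM without TMM and on 33 EV counts of miR-29b-3p, where counting alone gives a coefficient of variation of 30.2%. The part of counting error in the rank was not tested.

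**Figure D5:**
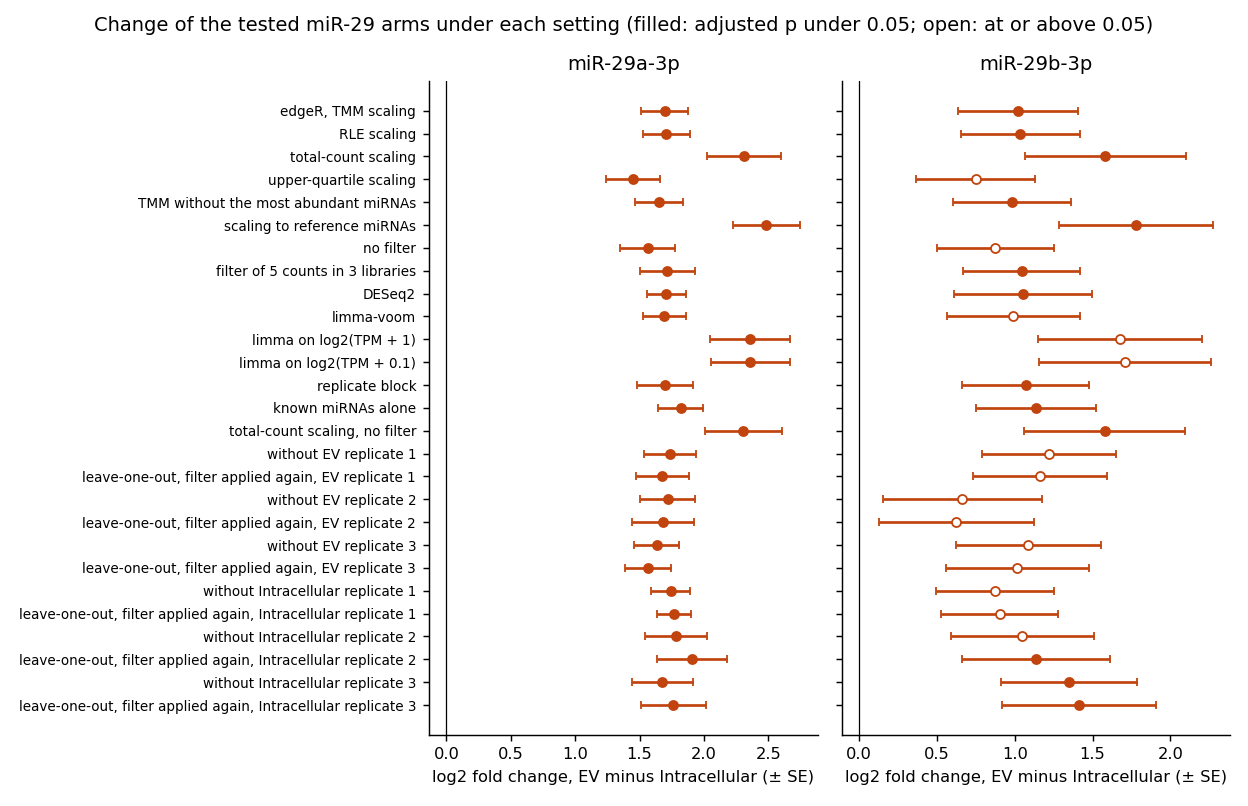
Log2 fold change, EV minus Intracellular, of miR-29a-3p (left) and miR-29b-3p (right) under each setting, ± SE, with filled symbols for an adjusted p under 0.05. All values lie above 0; miR-29a-3p is filled throughout (1.45 to 2.49), and miR-29b-3p is open for 14 of its 26 alternatives (0.62 to 1.78 over all).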

How the data were processed

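Per the labels' protocols, 1 µg of total RNA per sample was ligated to adapters, reverse transcribed, amplified over 15 PCR cycles and cut from a gel. No molecular identifiers are named, and intervals and floors are of counting error alone. The submitters' processing notes name cutadapt and the build Rnor_6.0; aligner, miRNA database and counting program: not given in the sources used here. The authors deposited whole-number counts per miRNA row, and the deposited TPM table equals these counts per 1000000 with no length term (largest difference 4.78e-05). Each column was tied to its sample through the group and replicate number in its name.

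The miR-29 rows and the lists were chosen with earlier results of these data known. Counts were tested with edgeR 4.0.16 (R 4.3.3; TMM, filterByExpr with minimum count 10 and minimum total 15, robust, no replicate block, Benjamini-Hochberg) over all 328 rows that passed. The filter follows the median library size, so arms could fail it with several EV counts. Rows could also pass it through a few EV counts alone, and such rows enter the shares of all miRNAs tested that are given here. SEs came from the F statistic. The procedure was tested on simulated data. Ratios within a library were compared by exact permutation tests (scipy 1.17.1). Alternatives were other scalings and filters, DESeq2 1.42.0, limma 3.58.1 (voom, or log2(TPM + 1) and log2(TPM + 0.1)), a replicate block, known miRNAs alone and each library left out; total counts with no filter was added after seeing the data. The rule for named miRNAs took all miR-29 arms, the 5 nearest profiles of each tested arm and at most 4 miRNAs per list by level. Group means were given for miR-21-5p and miR-26a-5p, which were not the most abundant of their lists. miR-214-3p, miR-34a-5p, miR-122-5p and miR-19b-3p were also named for their calls. Sequences are from RefSeq, where 6 of 6 rows matched.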

Additional observations from a re-analysis of the deposited data

How the results depend on the processing

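miR-29a-3p kept its higher call under all 26 alternatives, with log2 fold changes of 1.56 to 1.91 when 1 library was left out. miR-29b-3p lost its call with upper-quartile scaling (0.75), no filter (0.88), limma-voom (0.99) and limma on log2(TPM + 1) (1.68) or log2(TPM + 0.1) (1.71), and it ranged from 0.62 to 1.41 with 1 library left out (edgeR adjusted p 0.0167 to 0.366). Calls over all miRNAs numbered 84 higher and 56 lower. Higher calls were 127 with reference miRNA scaling, 197 with no filter and 254 with total counts and no filter. Lower calls were 3 with total counts, 1 with reference miRNA scaling, 92 with upper quartiles, 2 with either pseudocount, 37 for known miRNAs alone and 1 with total counts and no filter. With 1 library left out there were 50 to 91 higher and 18 to 58 lower calls. The cause was not tested. The difference in the arm ratio of miR-29a turned to -0.92 with a prior count of 0.1. Without the 10 most abundant miRNAs in the denominator, the summed miR-29 level was 14483 CPM in EV, against 3984 CPM in Intracellular libraries. Same-numbered libraries did not deviate together (correlations of 0.016 to 0.024, with 0 of 6 libraries correlating best with their own number). With the replicate block, miR-29a-3p stood at 1.70 and miR-29b-3p at 1.07 (edgeR adjusted p = 0.0259), with 87 higher and 46 lower calls, and neither arm's call changed. At EV depth, the 5p arms and miR-29c-3p were limited to at most 5 counts per library.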
